A study of Mus musculus with 34 samples.

Results

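The chromatin of elongating spermatids was compared between SV129 mice and C57BL6 mice with intact Gcn5 (C57BL6 WT), through the intervals that the authors called from paired-end ATAC-seq. In this assay the Tn5 transposase cuts and tags accessible DNA, and fragments of nucleosome length mark DNA wrapped around histones while shorter fragments mark open DNA. The comparison takes 6 of the 34 libraries of the series. SV129 elongating spermatids gave 4 libraries, made as technical repeats of 2 biological replicates, and C57BL6 WT elongating spermatids gave 2 libraries from 2 biological replicates. Each group has 1 deposited list of nucleosome calls and 1 of subnucleosome peaks. SV129 spermatids had 480320 nucleosome calls and 787 subnucleosome peaks, and C57BL6 WT spermatids had 591189 nucleosome calls and 562 subnucleosome peaks, together 1072858 of the 3711338 intervals of the series. Every nucleosome call is 150 bp wide.

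The SV129 spermatids came from males of 8 to 12 weeks, pooled from 11 mice per collection, carrying no engineered allele that the labels name. Germ cells were separated by sedimentation at unit gravity into fractions of at least 85% purity, and 200000 cells were exposed to 2.5 or 5 units of Tn5 and amplified for 12 PCR cycles. The C57BL6 WT mice carry the GCN5+/+ genotype, and their age and number are not in the labels. A further elongating spermatid group served as a yardstick, C57BL6 mice in which floxed Gcn5 was deleted by Cre expressed from the Stra8 promoter (cKO). Meiotic cells (MS), round spermatids (RS) and mature sperm (Sp) of SV129 and C57BL6 WT gave the same contrast at other stages. Strain cannot be told apart from library number, collection or calling depth, because there is 1 list per group and the read depth behind it is unknown. For the same reason no spread between replicates could be given, no test was made, and intervals in brackets are Wilson 95% intervals that cover counting error alone.

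During spermatid elongation most histones are removed and replaced, first by transition proteins and then by protamines, and the nucleus condenses. The nucleosomes that remain in mouse sperm have been located both at gene regulatory DNA rich in CpG and in broad gene-poor DNA, depending on the method, so the place of late nucleosomes is a standing question for this stage. Gcn5 (Kat2a) is the acetyltransferase of the SAGA and ATAC coactivator complexes and acts on histones, which are acetylated widely before they leave the spermatid.

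Single positions that both strains share are best shown by the DNA under them. Among the genes of the fixed lists, 3 promoters held an SV129 call and a C57BL6 WT call centred on the same base. Hoxa3 (chr6:52213018-52213317, minus strand) encodes a homeodomain factor of body patterning, Ctnna2 (chr6:77979618-77979917, minus strand) the neural alpha-catenin that ties cadherins to actin, and Tssk1 (chr16:17893953-17894252, plus strand) a kinase made in spermatids. RefSeq sequence of GRCm38.p6 is given 5′ to 3′ from 250 bases before to 50 bases after the annotated start, and capitals mark the 150 bases that lie in both calls.
Hoxa3: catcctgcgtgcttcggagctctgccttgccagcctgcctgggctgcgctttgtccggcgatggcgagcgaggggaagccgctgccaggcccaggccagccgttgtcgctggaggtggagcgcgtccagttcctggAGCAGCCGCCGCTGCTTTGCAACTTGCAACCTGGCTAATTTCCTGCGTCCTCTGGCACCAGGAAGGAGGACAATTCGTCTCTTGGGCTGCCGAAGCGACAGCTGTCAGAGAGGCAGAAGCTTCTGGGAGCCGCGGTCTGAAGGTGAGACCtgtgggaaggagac
Ctnna2: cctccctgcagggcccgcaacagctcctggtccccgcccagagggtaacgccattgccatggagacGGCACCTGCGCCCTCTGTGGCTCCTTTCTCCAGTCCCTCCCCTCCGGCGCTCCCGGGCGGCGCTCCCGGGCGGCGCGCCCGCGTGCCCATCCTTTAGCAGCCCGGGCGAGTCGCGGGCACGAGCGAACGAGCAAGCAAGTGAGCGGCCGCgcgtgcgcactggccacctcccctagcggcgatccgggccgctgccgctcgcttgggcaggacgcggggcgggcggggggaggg
Tssk1: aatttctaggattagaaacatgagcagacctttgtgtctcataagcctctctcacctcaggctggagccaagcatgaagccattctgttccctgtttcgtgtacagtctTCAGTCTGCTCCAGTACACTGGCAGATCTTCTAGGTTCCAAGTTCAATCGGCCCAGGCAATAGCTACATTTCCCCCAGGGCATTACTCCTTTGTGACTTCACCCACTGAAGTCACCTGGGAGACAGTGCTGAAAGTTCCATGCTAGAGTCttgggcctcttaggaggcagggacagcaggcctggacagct
The Ctnna2 window holds 75.3% G+C and 38 CG dinucleotides, the Hoxa3 window 64% and 20, and the Tssk1 window 50.7% and 2. Subnucleosome peaks of both strains met in the promoters of 4931408C20Rik (chr1:26687411-26687710, minus strand) and Gm9758 (chr5:14914840-14915139, minus strand), which are shown because so few promoters carry such a peak in both lists. Here capitals mark the 84 and 101 bases common to both peaks, and neither window contains a CG dinucleotide. Peaks of both strains also met in the promoter of Gm15564, not shown, over 10 or 12 bases at the edge of windows that hold 6 CG.
4931408C20Rik: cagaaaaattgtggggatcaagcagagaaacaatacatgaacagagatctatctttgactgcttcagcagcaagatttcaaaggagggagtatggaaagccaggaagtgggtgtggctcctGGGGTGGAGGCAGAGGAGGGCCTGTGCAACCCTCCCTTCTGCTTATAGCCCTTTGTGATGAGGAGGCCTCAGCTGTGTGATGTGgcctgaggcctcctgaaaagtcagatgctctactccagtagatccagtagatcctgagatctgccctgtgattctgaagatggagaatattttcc
Gm9758: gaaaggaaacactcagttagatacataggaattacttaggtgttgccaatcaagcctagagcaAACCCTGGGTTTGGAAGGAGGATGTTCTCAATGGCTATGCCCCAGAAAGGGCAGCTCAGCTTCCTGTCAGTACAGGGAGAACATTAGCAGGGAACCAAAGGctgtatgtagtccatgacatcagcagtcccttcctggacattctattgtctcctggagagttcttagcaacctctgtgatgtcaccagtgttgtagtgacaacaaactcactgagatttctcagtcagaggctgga

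Few single nucleosome calls were repeated between the strains. On chromosomes 1 to 19 and X, 39982 of 478250 SV129 calls overlapped a C57BL6 WT call by at least 1 bp, which is 8.36% (8.28 to 8.44). In the other direction 43298 of 588811 C57BL6 WT calls overlapped an SV129 call, which is 7.35% (7.29 to 7.42). The share was 6.17% of SV129 calls and 5.44% of C57BL6 WT calls when 75 bp had to overlap, and 3.56% and 3.01% when centres had to lie within 20 bp. An SV129 call lay a median of 2047 bp from the nearest C57BL6 WT call, and a C57BL6 WT call 2740 bp from the nearest SV129 call.

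Part of that overlap follows from regional density alone. Calls spread evenly inside each 100 kb bin, with every bin keeping its number, would give 4.70% for SV129 calls and 4.29% for C57BL6 WT calls, so the observed shares were 1.78 and 1.71 times the even level. Spreading calls evenly within 10 kb raised the SV129 level to 5.19%, and within 1 kb to 6.66%. The same ratio for the 100 kb bins was 12.6 in meiotic cells, 18.5 in round spermatids and 9.23 in sperm for SV129 calls against C57BL6 WT calls. In those stages 69.0%, 40.7% and 26.1% of SV129 calls were repeated. In the other direction it was 44.8%, 40.4% and 39.8% of C57BL6 WT calls, at 14.5, 19.1 and 8.57 times the even level. The lists differ in length, so the order of these stages depends on the direction. Low repetition was also seen within C57BL6, where 6.57% of C57BL6 WT elongating spermatid calls overlapped a call of the cKO. Of SV129 calls, 9.35% overlapped one of the cKO.

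Pairs of calls from the 2 lists, overlapping or not, were spaced in a nucleosome-like pattern. Counting all pairs of an SV129 and a C57BL6 WT centre by their distance, and dividing by the density of pairs 2 to 3 kb apart, gave 3.84 at 0 to 9 bp. The density had a low of 1.14 at 120 to 129 bp and a second rise to 1.54 at 210 to 219 bp, close to the length of a nucleosome with its linker. Calls that far apart do not overlap, and the spacing of calls within each list is not given here. In round spermatids the level was 55.2 at 0 to 9 bp and in meiotic cells 45.7, with the second rise at 200 to 209 bp in both. Without the densest 1% of 100 kb bins the elongating spermatid level at 0 to 9 bp was 3.80. It was 3.37 among calls that overlapped no meiotic or round spermatid call of either group, with a low of 0.975 at 130 to 139 bp and a second rise to 1.41 at 210 to 219 bp.

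**Figure D1:**
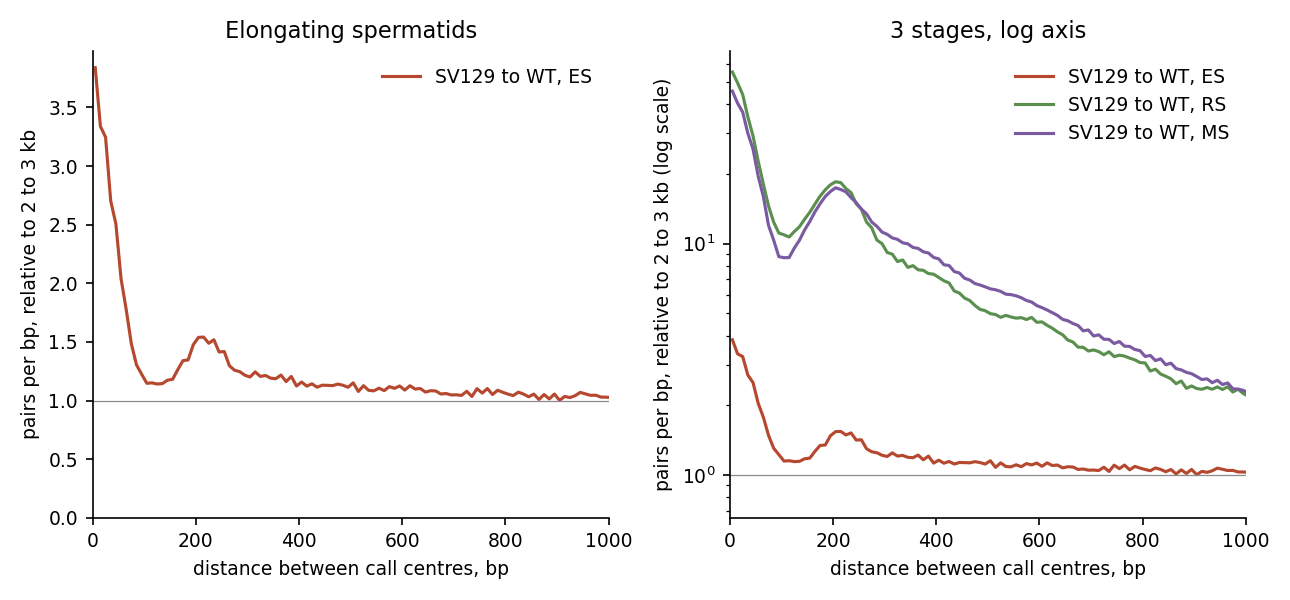
Density of pairs of an SV129 and a C57BL6 WT nucleosome call by the distance between their centres (x axis, bp), relative to pairs 2 to 3 kb apart (y axis), for elongating spermatids on a linear axis and for 3 stages on a log axis. The elongating spermatid line starts at 3.84, dips to 1.14 and rises again to 1.54 near 210 bp, and the lines of the other stages start at 55.2 and 45.7.

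Repeated calls were more frequent at gene ends, taken as 500 bp on either side of the annotated start or end of a protein-coding gene. At gene ends 13.0% of SV129 calls and 14.7% of C57BL6 WT calls were shared, in gene bodies 8.50% and 8.35%, and outside genes 7.88% and 6.18%. The ratio to the even level of the 100 kb bin was 2.52 and 2.56 at gene ends, 1.69 and 1.68 in gene bodies and 1.81 and 1.69 outside genes. Gene ends held only 3.51% of SV129 calls and 2.72% of C57BL6 WT calls, so most shared calls lay elsewhere. Calls packed into merged regions of 6 or more calls were shared most, at 37.3% in SV129 and 31.1% in C57BL6 WT, and calls standing alone at 6.76% and 7.31%. Such packed calls were 1.21% and 1.26% of the lists. In regions of 3 to 5 calls the shares were 9.38% and 6.76%, so C57BL6 WT had no steady rise. No even level was set beside these shares or the following ones. Positions shared by the strains were also more often those of earlier stages: 17.7% of shared SV129 calls overlapped an SV129 round spermatid call, against 6.18% of unshared ones. Among C57BL6 WT calls, 12.9% of shared and 3.48% of unshared calls overlapped a C57BL6 WT round spermatid call. The cKO list, which took no part in the choice, overlapped 21.4% of shared and 8.24% of unshared SV129 calls, and 20.4% of shared and 5.47% of unshared C57BL6 WT calls.

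Regional density agreed far more than single calls. Across 25351 bins of 100 kb with a call in either list, Pearson's r between the 2 lists was 0.61 and Spearman's rho 0.65. Across 2581 bins of 1 Mb, r was 0.82 and rho 0.91. These are descriptions over neighbouring bins of 2 lists that share the genome build and its mappable sequence. At 10 kb r was only 0.11, and at 1 kb it was -0.46, where leaving out bins empty in both lists forces an inverse relation. If calls were independent counts, the variance of the bins would allow an r of up to 0.88 at 100 kb and 0.98 at 1 Mb and the observed values lay below both. Calls are not independent, with 1.76 calls per merged region of overlapping calls in SV129 and 2.09 in C57BL6 WT. Counted as merged regions, r was 0.70 of up to 0.76 at 100 kb and 0.89 of up to 0.96 at 1 Mb.

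**Figure D2:**
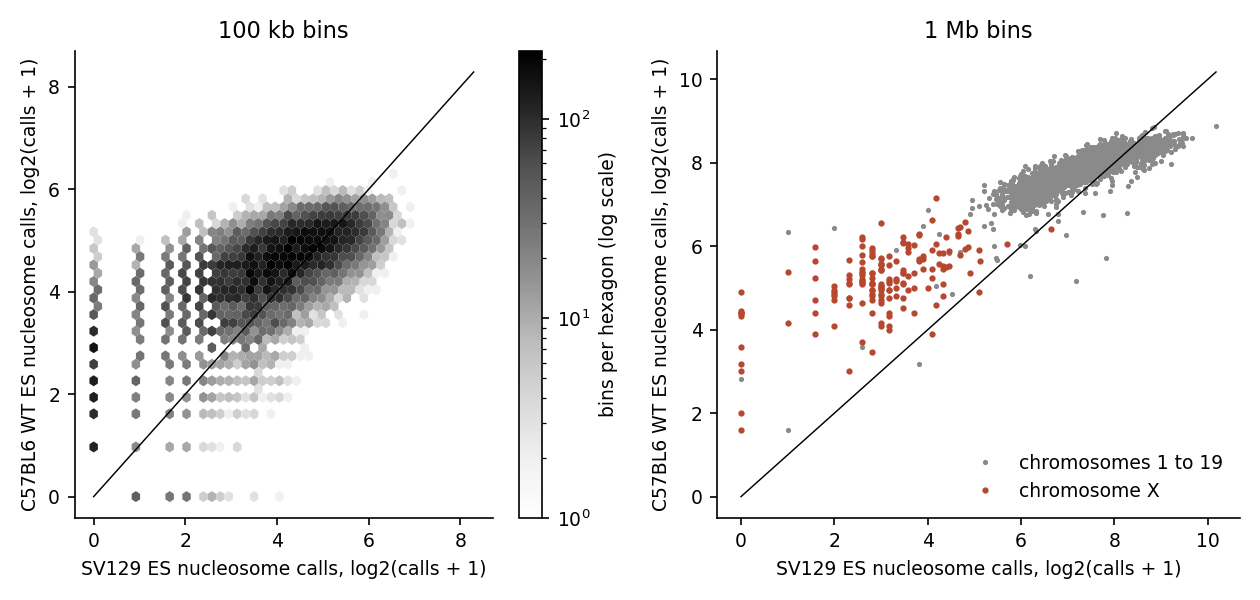
Nucleosome calls per bin in SV129 (x axis) and C57BL6 WT (y axis) elongating spermatids, both as log2(calls + 1), for 25351 bins of 100 kb (shade gives the number of bins) and 2581 bins of 1 Mb (1 point each, chromosome X in red), with the line of equal counts. The 1 Mb cloud is narrow (rho 0.91) and flatter than the line, and X bins lie above it, with fewer SV129 than C57BL6 WT calls.

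At the other stages Pearson's r depended less on bin size. SV129 and C57BL6 WT meiotic cells already had r of 0.77 at 10 kb, 0.89 at 100 kb and 0.96 at 1 Mb. Round spermatids had 0.50, 0.47 and 0.46 at the same sizes. By r, elongating spermatids of the strains were thus less alike than round spermatids at 10 kb and more alike at 1 Mb. At 10 kb the highest r for independent counts also differed, at 0.64 over 199156 bins in elongating and 0.77 over 108850 bins in round spermatids. Spearman's rho rose with bin size, with 0.42, 0.80 and 0.95 in meiotic cells and 0.02, 0.49 and 0.55 in round spermatids. In elongating spermatids rho at 10 kb was -0.05, so at that size the contrast with round spermatids rests on r. The elongating SV129 list was closer by r to the cKO list, at 0.75 in 100 kb bins and 0.93 in 1 Mb bins, than to the C57BL6 WT list. The C57BL6 WT and cKO lists, the only pair of one strain, had r of 0.60 and 0.88. At 1 Mb that pair lay between the SV129 to C57BL6 WT and SV129 to cKO values, and none of these differences has a replicate check.

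**Figure D3:**
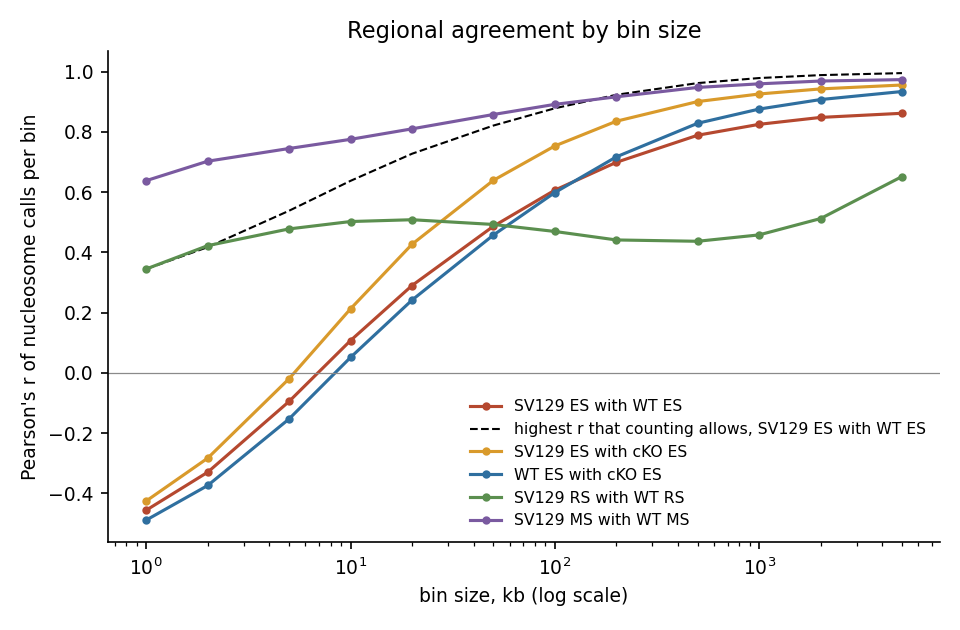
Pearson's r of nucleosome calls per bin (y axis) against bin size (x axis, kb, log scale) for pairs of lists, with the highest r that independent counting allows for the SV129 and C57BL6 WT elongating spermatid pair (dashed). The 3 elongating spermatid pairs climb from below 0 at 1 kb to 0.82 to 0.93 at 1 Mb, while the meiotic line is high throughout and the round spermatid line runs between 0.34 and 0.51 up to 1 Mb.

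The densest regions were shared in part. Of the 26 densest 1 Mb bins of each list (the top 1%), 9 were common, and of the 258 densest (the top 10%), 150 were. At 100 kb, 42 of 254 bins in the top 1% and 931 of 2535 in the top 10% were common. SV129 calls were the more concentrated, with 25.3% of SV129 calls against 15.6% of C57BL6 WT calls in the list's own top 10% of 1 Mb bins. The variance of 1 Mb counts was 93.5 times the mean in SV129 and 30.9 times the mean in C57BL6 WT.

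Call density was higher in gene-rich DNA in both strains, with the wider contrast in SV129. The 2413 autosomal 1 Mb bins that held a call were divided into quintiles by their number of protein-coding genes. SV129 had a mean of 314 calls per bin in the gene-richest quintile and 97.3 in the gene-poorest, a ratio of 3.23, whereas C57BL6 WT had 283 and 183, a ratio of 1.55. The richest quintile held 31.8% of SV129 and 23.5% of C57BL6 WT calls, and the poorest 9.86% and 15.2%, shares that are free of list length. The cKO ratio was 2.02. In meiotic cells the ratio was 5.54 in SV129 and 4.55 in C57BL6 WT. Within a quintile the strains still agreed, with r between 0.75 and 0.83 over 482 or 483 bins.

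**Figure D4:**
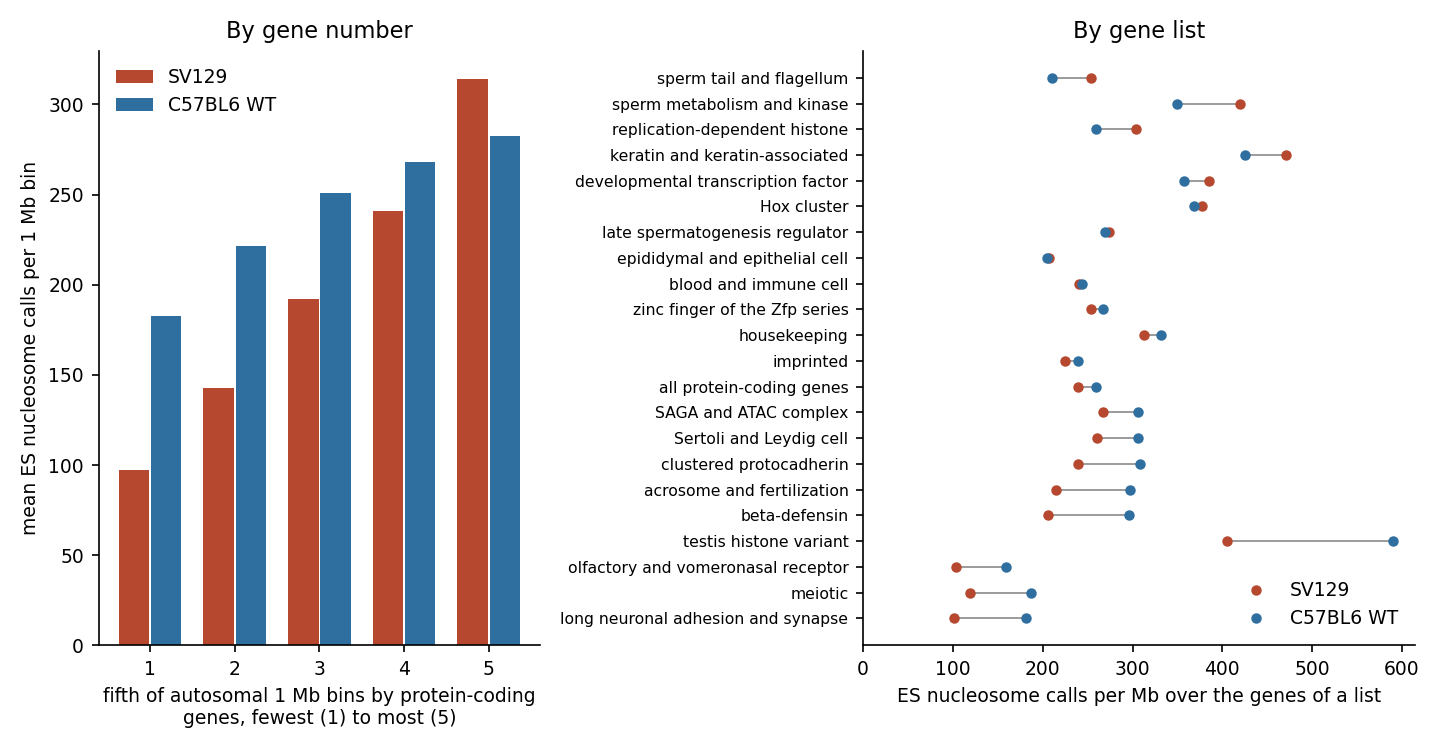
Mean elongating spermatid nucleosome calls per autosomal 1 Mb bin by quintile of protein-coding gene number (left, bars from 0) and calls per Mb over the genes of each fixed list (right, points, ordered by the ratio of SV129 to C57BL6 WT), SV129 in red and C57BL6 WT in blue. SV129 climbs from 97.3 to 314 calls per bin and C57BL6 WT from 183 to 283, and long neuronal genes have the lowest ratio. The list of 5 protamine and transition protein genes is left out because it holds 6 SV129 and 2 C57BL6 WT calls.

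The chromosomes showed the same order. The SV129 to C57BL6 WT ratio of calls was lowest among autosomes on chromosome 3, at 0.645, and highest on chromosome 11, at 0.965, against 0.812 for the complete lists. Over the 19 autosomes this ratio followed genes per Mb (r 0.75, rho 0.82). The single X of male germ cells, which is silenced during meiosis and stays largely repressed in spermatids, had 1714 SV129 and 6857 C57BL6 WT calls, a ratio of 0.25. Within each autosome the 1 Mb bins of the strains had r between 0.64, on chromosome 14, and 0.88, on chromosome 16.

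Many bins nevertheless differed in their counts of calls. The share that counting error alone would put past 2-fold was not computed, and it is larger in bins with few calls. After scaling the lists to equal totals, 8.9% of the 21128 bins of 100 kb with at least 20 calls were over 2-fold higher in SV129 than in C57BL6 WT, and 19.6% were over 2-fold lower. The direction turned with the call minimum: with at least 50 calls, 1355 of 8250 bins (16.4%) were higher and 370 (4.48%) lower, and with at least 100 calls 310 of 643 were higher and 1 lower. It turned also with overlapping calls merged, where 1046 of 12154 bins were higher and 658 lower, against 1881 and 4138 of 21128 as deposited. Neither direction can thus be given to the 100 kb bins as a whole. At 1 Mb 1.68% of 2566 bins were over 2-fold higher and 12.5% over 2-fold lower, and with at least 100 calls 42 of 2409 were higher and 194 lower. The 100 kb bins that were higher held a mean of 1.69 protein-coding genes and those that were lower 0.484, and with at least 50 calls 2.02 and 0.719. Of the 321 lower 1 Mb bins, 130 were on X.

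Among the 643 bins of 100 kb with at least 100 calls, the 5 highest in SV129 lay on chromosomes 12, 14 and 17. The bin with the largest ratio among them, chr14:5900001-6000000, contains Gm3248 and had 98 SV129 and 6 C57BL6 WT calls. It lies in a run of predicted Gm genes at the start of chromosome 14 whose 1 Mb bins had 144, 306 and 225 SV129 calls against 35, 110 and 52 C57BL6 WT calls. On chromosome 17 the bin chr17:6400001-6500000, which contains the dynein light chain gene Dynlt1b, had 210 SV129 and 18 C57BL6 WT calls, and the bin beside it, with Gm2808 and Gm29721, had 133 and 22. A further pair of bins without a protein-coding gene inside them, chr12:115600001-115700000 and chr17:27300001-27400000, had 118 and 93 SV129 calls against 19 and 17 C57BL6 WT calls. The cKO spermatids, also C57BL6, had 6, 23, 12, 35 and 38 calls in these 5 bins.

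The same excess stood in lists that had no part in choosing these bins. In round spermatids the Gm3248 bin had 35 SV129 and 0 C57BL6 WT calls, in meiotic cells 51 and 0, and in sperm, where the whole SV129 list holds 13615 calls, 111 and 0. The Dynlt1b bin had 68 SV129 and 11 C57BL6 WT calls in round spermatids and 253 and 50 in meiotic cells. The chromosome 12 bin had 153 SV129 and 0 C57BL6 WT calls in round spermatids, and 127 and 5 in sperm. In the 1 Mb bin chr8:20000001-21000000, which contains the defensin gene Defb33, SV129 had 1155 and C57BL6 WT 474 calls in elongating spermatids, 734 and 130 in round spermatids and 734 and 103 in sperm. The build named in the submitters' processing notes represents C57BL/6J, and its part in these differences was not tested. The lists give no copy number, so more copies of a region in SV129 and more nucleosomes per copy cannot be told apart in these bins.

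The bins lowest in SV129 were also taken among those with at least 100 calls. Among 1 Mb bins with at least 100 calls the lowest were 3 on X, with 7, 17 and 16 SV129 calls against 93, 141 and 98 C57BL6 WT calls, and 2 on chromosome 7. The chromosome 7 bins were a cluster of vomeronasal receptor genes (Vmn1r) at chr7:22000001-23000000, with 15 SV129 and 115 C57BL6 WT calls, and a cluster of secretoglobin genes (Scgb) at chr7:32000001-33000000, with 14 and 88. The cKO had 33 and 56 calls there. At 100 kb that minimum left few bins low in SV129 to choose from. Of 643 such bins 1 was over 2-fold lower, against 4138 of 21128 with at least 20 calls. The lowest ratios under it were therefore mild, with 25 SV129 and 75 C57BL6 WT calls in the bin of Tcp10c, a testis gene of the t-complex. The bin of Pcdh8, a protocadherin, had 34 and 66. The bins of Zfp978 and of Gm40035 with Gm14496 had 43 and 37 SV129 calls against 76 and 68 C57BL6 WT calls. Both chromosome 7 clusters were nearly empty in round spermatids, with at most 3 calls in SV129 and 0 in C57BL6 WT. Over all 2370 autosomal 1 Mb bins with at least 20 calls at both stages, the log2 ratio of SV129 to C57BL6 WT in elongating spermatids had r 0.63 and rho 0.65 with that in round spermatids. With meiotic cells, over 2277 bins, r was 0.20 and rho 0.14.

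The 5 densest 100 kb bins of both strains held 0 to 3 protein-coding genes each, against a mean of 0.912 over all bins with at least 20 calls. The lists give no copy number, so copies of a bin and nucleosomes per copy cannot be told apart in them. The bin chr9:3000001-3100000, at the centromeric end of its chromosome and with no protein-coding gene inside it, had 236 SV129 and 269 C57BL6 WT calls. The bin of Sfi1 (chr11:3100001-3200000), a centrin-binding protein of the centrosome, had 259 and 176. These bins were dense in sperm too, where the whole lists hold 13615 SV129 and 8628 C57BL6 WT calls. The chromosome 9 bin had 223 SV129 and 216 C57BL6 WT sperm calls, and the Sfi1 bin 285 and 367. The 3 bins of the Speer4 cluster on chromosome 5, spermatogenesis-associated glutamate-rich proteins, had 111, 134 and 121 SV129 calls and 137, 129 and 112 C57BL6 WT calls. In sperm this cluster had 68, 124 and 108 SV129 calls and 117, 147 and 104 C57BL6 WT calls. Away from such clusters, 1 of the 5 densest 1 Mb bins was a stretch of ordinary genes with Tert, the telomerase reverse transcriptase, and Irx4 (chr13:73000001-74000000), with 456 SV129 and 460 C57BL6 WT calls.

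Long genes were ordered alike by call density in the strains. Over 4941 genes of at least 50 kb, calls per kb had r 0.60 and rho 0.64, with a median of 0.188 in SV129 and 0.254 in C57BL6 WT. The long genes densest in both lists after Sfi1, which had 234 SV129 and 157 C57BL6 WT calls, included Macroh2a1, a histone variant linked to silent chromatin, with 48 and 41. Ptprs, a receptor tyrosine phosphatase, had 62 and 44 calls, and Capn2, a calcium-dependent protease, 34 and 37. The others were Gm38510, with 166 SV129 and 111 C57BL6 WT calls, Sp140 with 73 and 41, Rab6b with 48 and 54, Ttc13 with 32 and 46, Pxylp1 with 49 and 43, and Cdc42bpb with 70 and 53.

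Outside the protamine list, the ratio of SV129 to C57BL6 WT call density over a gene list lay between 0.556 and 1.21. Over all 21887 protein-coding genes SV129 had 239 and C57BL6 WT 260 calls per Mb, a ratio of 0.921. The 89 long neuronal adhesion and synapse genes had 8879 SV129 and 15968 C57BL6 WT calls, or 101 and 182 per Mb, a ratio of 0.556. Within that list Ntm, a neural adhesion molecule, had 286 and 289 calls, Dpp6, a subunit of potassium channels, 256 and 278, and Tenm4, a teneurin, 241 and 248. These members were named for having most calls in the lesser list. That choice favours near-equal counts, so they do not show how members of the list vary. The 1474 olfactory and vomeronasal receptor genes had 104 SV129 and 159 C57BL6 WT calls per Mb, and the 44 meiotic genes 119 and 187. Sperm tail genes had 254 and 210 per Mb, of which Dnah8, an axonemal dynein heavy chain, gave 172 of the SV129 and 57 of the C57BL6 WT calls. Spag16, of the central apparatus of the axoneme, had 59 and 126 calls, and Dnah17, another axonemal dynein, 61 and 47.

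Developmental and housekeeping lists lay near the overall ratio. Developmental transcription factor genes had 385 SV129 and 357 C57BL6 WT calls per Mb, with Pax5, a regulator of B cells, at 123 and 76 calls, and Hox genes had 377 and 368, with Hoxa3 at 18 and 18. Housekeeping genes had 313 and 331 per Mb, and imprinted genes 224 and 240, with the potassium channel Kcnq1 at 177 and 115 calls. Zinc finger genes of the Zfp series had 254 and 267 per Mb, with Zfp423 at 161 and 124 calls. The SAGA and ATAC subunits, partners of Gcn5, had 267 and 306 per Mb, with Atxn7l1 at 94 and 92 calls and Trrap at 34 and 47. Acrosome and fertilization genes had 215 and 297 per Mb, with Zpbp, an acrosomal protein, at 15 and 53. Gene lengths differ between lists, and genes of a list that overlap, such as the clustered protocadherins, share calls.

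At gene ends the strains overlapped somewhat beyond the share of all genes. A call within 500 bp of an end was present in 8576 genes in SV129, which is 39.2% of the 21887, and in 7803 genes in C57BL6 WT, which is 35.7%. Both lists had one in 3815 genes, 17.4% of all, which is 44.5% of the SV129 genes and 48.9% of the C57BL6 WT genes. Of 51 housekeeping genes, 27 had a call at an end in SV129, 25 in C57BL6 WT and 17 in both. Of 98 developmental transcription factor genes, 42 had one in SV129, 40 in C57BL6 WT and 21 in both. Of 1474 receptor genes, 219 had one in SV129, 246 in C57BL6 WT and 45 in both. Of 57 clustered protocadherin genes, 6 had one in SV129, 30 in C57BL6 WT and 4 in both, and since genes of a cluster share an annotated end, 1 call there counts for several of them.

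Genes that make the stage were few and short. Of the 5 protamine and transition protein genes, whose products replace histones, 4 had a call at an end in SV129 (Tnp2, Prm3, Prm2 and Prm1) and 1 in C57BL6 WT (Prm2). These 4 genes lie side by side on chromosome 16, and Tnp1 on chromosome 1 had no call in either list. Of 19 testis histone variant genes, 6 had a call at an end in SV129 and 5 in C57BL6 WT, and Hils1, a spermatid linker histone, and H2ax were the 2 in both. H1f7, another spermatid linker histone, had 5 SV129 and 0 C57BL6 WT calls, and H2az1 0 and 10. The lists hold positions and no RNA, so they do not show which cells were collected. Marker genes of other cells had calls at an end in 14 SV129 and 13 C57BL6 WT of 30 for Sertoli and Leydig cells, 6 and 12 of 30 for blood cells, and 10 and 6 of 25 for epididymal and epithelial cells, against the 39.2% and 35.7% of all genes.

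Promoter calls favoured GC-rich DNA in both strains. Of 32619 RefSeq promoter windows of 300 bases, 791 (2.42%) held the centre of a call of each list, 3595 of an SV129 call alone and 3011 of a C57BL6 WT call alone. The median G+C content was 64.7% with 24 CG dinucleotides in windows with both, 58.7% and 15 with SV129 alone, 59% and 17 with C57BL6 WT alone and 51.3% and 6 with neither. In the decile of lowest G+C, 1.53% of windows had an SV129 call and 3.37% a C57BL6 WT call, and in the highest decile 23.1% and 23.4%. The Hoxa3 and Ctnna2 windows are of the frequent kind, and the Tssk1 window, with 2 CG, is not.

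A larger share of subnucleosome peaks, though these are scarce, was repeated than of nucleosome calls. The shares are not like measures, since peaks vary in width and no even-spread level was set beside them. All 562 C57BL6 WT peaks carry library number 1 in their names, and SV129 peaks carry none, so the C57BL6 WT list may rest on 1 of the 2 libraries. Of 787 SV129 peaks, 415 overlapped a C57BL6 WT peak, which is 52.7% (49.2 to 56.2), and of 562 C57BL6 WT peaks, 416 overlapped an SV129 peak, which is 74.0% (70.2 to 77.5). Elongating spermatids had far fewer such peaks than round spermatids, which had 29243 in SV129 and 56480 in C57BL6 WT. Peaks of at least 300 bp were shared in 57 of 61 cases in SV129 and 60 of 64 in C57BL6 WT, and peaks under 100 bp in 111 of 300 and 110 of 192. The median width was 136 bp for shared and 98 bp for unshared SV129 peaks, and 135 bp and 92 bp for C57BL6 WT peaks. Other sequences of the build than chromosomes 1 to 19, X and Y held 63 SV129 and 66 C57BL6 WT peaks, 84.1% and 77.3% of them shared.

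Many shared peaks had a partner at every stage. In all 12 subnucleosome lists of the series an overlapping peak was found for 157 SV129 and 159 C57BL6 WT peaks. Conversely, 96 SV129 and 42 C57BL6 WT peaks overlapped no peak of another list. The cKO elongating spermatids overlapped 82.2% of shared and 8.06% of unshared SV129 peaks, and 83.2% of shared and 37.0% of unshared C57BL6 WT peaks. Of the 372 SV129 peaks with no C57BL6 WT partner, 56.7% overlapped a peak of SV129 round spermatids and 38.2% one of SV129 sperm, against 20.7% and 1.34% for the C57BL6 WT lists of those stages. Among the 146 unshared C57BL6 WT peaks, 32.9% overlapped a peak of C57BL6 WT round spermatids and 16.4% one of SV129 round spermatids.

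**Figure D5:**
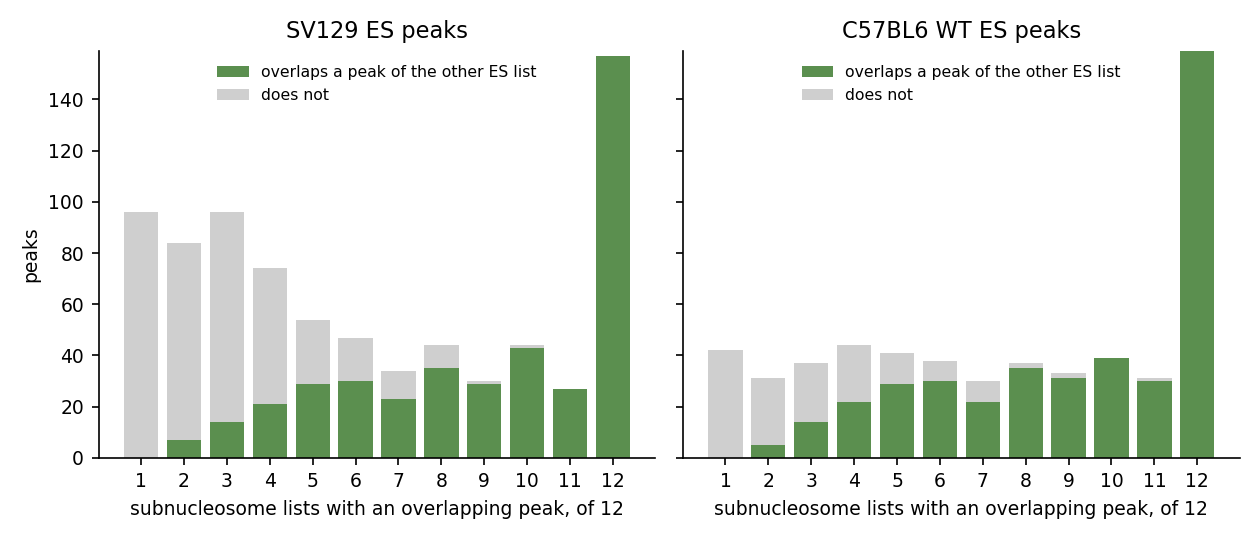
Elongating spermatid subnucleosome peaks of SV129 (left) and C57BL6 WT (right) by the number of the 12 subnucleosome lists of the series, their own included, that hold an overlapping peak (x axis); bars give peaks (y axis), green for those that overlap a peak of the other elongating spermatid list. Both panels have their tallest bar at 12 lists, with 157 and 159 peaks, and SV129 has 96 peaks in its own list alone, against 42 in C57BL6 WT.

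The 15 widest shared peaks lay over pseudogenes, DNA without an annotated gene and some protein-coding genes. The widest SV129 peak, chr1:24611581-24615580, spans 4000 bp over the pseudogenes Gm10222 and Gm10925, met 5 C57BL6 WT peaks over 3605 bp and had a partner in all 12 lists. A peak at chr2:98666254-98667316 with no annotated gene was 1063 bp wide and shared over 1060 bp. Protein-coding genes with such a peak were E030030I06Rik (747 bp), Myo3a, an unconventional myosin (714 bp), Dlgap2, a postsynaptic scaffold (616 bp), and Adam5, a testis member of the ADAM family (551 bp), each with a partner in all 12 lists. The ribosomal RNA pseudogene Rn18s-rs5 and AY036118 lie in the bin chr17:39800001-39900000, with 9 SV129 and 10 C57BL6 WT peaks. The bin chr9:3000001-3100000, dense in nucleosome calls too, had 33 peaks in each strain, and the bin of Duxf3 and LOC100504180 (chr10:58200001-58300000) had 12 and 10. Duxf3 belongs to the Dux family of homeodomain factors of the early embryo.

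Regional agreement of these peaks depended on which bins were counted. Across 511 bins of 100 kb with a peak in either list r was 0.84 and rho 0.16, and without the densest 1% of bins r was 0.55. Across 391 bins of 1 Mb r was 0.82 and rho 0.25. With bins empty in both lists kept in, r was 0.86 at 100 kb and 0.85 at 1 Mb. Over the bins with a peak of each list, which are chosen for being shared, r was 0.93 and rho 0.84 at 100 kb and 0.88 and 0.75 at 1 Mb. Of 459 SV129 bins of 100 kb with a peak, 220 (47.9%) also held a C57BL6 WT peak, which is 80.9% of the 272 C57BL6 WT bins. At 1 Mb 189 bins held both, 52.9% of 357 SV129 bins and 84.8% of 223 C57BL6 WT bins. The bin chr13:120000001-120100000, with Gm36079 and Gm21188, had 7 SV129 and 0 C57BL6 WT peaks, and 2 bins of the chromosome 14 cluster had 4 and 0 each. The bin of Sfi1 went the other way, with 6 SV129 and 13 C57BL6 WT peaks.

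Few genes had a subnucleosome peak within 500 bp of an end, 19 in SV129 and 10 in C57BL6 WT, which is 0.087% and 0.046% of all 21887. The 5 in both were 4931408C20Rik, LOC100504180, Gm9758, Gm32584 and the vomeronasal receptor gene Vmn2r29. Most of the 14 genes in SV129 alone carry only a predicted Gm name. Exceptions include Duxf3, Abo, a glycosyltransferase, and Rnf41, a ubiquitin ligase. In C57BL6 WT alone they included Lars2, the mitochondrial leucyl-tRNA synthetase, and the neighbours B3galt6 and Sdf4. No member of the protamine, testis histone, acrosome, sperm tail or housekeeping lists had such a peak in either strain. At the shares of all genes, lists of 5 to 51 genes would hold almost none, so this absence says nothing about these lists.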

How the data were processed

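Per the submitters' processing notes, the tools include STAR 2.5.2a and MACS2 2.1.0.20140616 and the builds GRCm38 and mm10. No source used here states how fragments were classed, intervals called or libraries combined. The authors deposited 1 BED list per group and class with a score per interval, which is 0 in every SV129 elongating spermatid subnucleosome peak and was used only in alternatives. The analysis used positions. Members and gene lists were chosen with earlier results of these data known. Overlaps, bin counts of call centres (chromosomes 1 to 19 and X, bins empty in both lists left out), Wilson 95% intervals and correlations were computed in Python 3.11.15 with numpy 2.4.6, pandas 2.3.3 and scipy 1.17.1, and checked on simulated data. The even-spread level is the covered length of the other list in a bin and draws nothing at random. Gene positions and promoter sequences are RefSeq, GRCm38.p6; 32619 promoter windows on these chromosomes, of 26794 symbols, were used. Named genes are those with a subnucleosome peak at an end in both lists, those in the 5 densest bins, in the 5 highest and 5 lowest bins by ratio with at least 100 calls, the 10 densest genes of at least 50 kb, the protamine and testis histone lists and up to 3 members of each other list with most calls in the lesser list. Genes outside this rule, and those with a peak in 1 strain alone, were picked after their values were seen. Read depth is unknown. No value column was left unmapped.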

Additional observations from a re-analysis of the deposited data

Results flagged for a closer look

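The length of the SV129 list relative to the C57BL6 WT list changed direction between stages in both classes. For nucleosome calls the ratio of SV129 to C57BL6 WT was 0.604 in meiotic cells, 0.909 in round spermatids, 0.812 in elongating spermatids and 1.58 in sperm. For subnucleosome peaks it was 0.923 in meiotic cells, 0.518 in round spermatids, 1.40 in elongating spermatids and 3.54 in sperm. With 1 list per group the differences between stages were not tested, and the read depth behind the lists is unknown.

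The gene-density contrast ran in opposite directions in round spermatids. The ratio of the gene-richest to the gene-poorest quintile of autosomal 1 Mb bins was 1.64 in SV129 and 0.645 in C57BL6 WT, whereas in elongating spermatids it was above 1 in both, at 3.23 and 1.55. This difference was not tested.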

How the results depend on the processing

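No paired analysis was possible because each group has 1 deposited list, although the labels number the libraries, and for the same reason no library could be left out. Over 11 results and 52 alternatives, 2 reversed, 13 kept within the main Wilson interval of a share, 0.005 of an r, quintile ratio or pair density, or 1.5 times a count, and 37 moved further. The share of SV129 nucleosome calls that were shared was 6.17% at 75 bp, 3.56% with centres within 20 bp, 7.92% with calls merged and 7.79% without calls at each list's most common score. The 100 kb correlation was 0.65 by Spearman, 0.66 on log2(count + 1), 0.70 merged, 0.65 without the most common score, 0.57 on chromosomes 1 to 19, 0.63 with all bins and 0.58 without the densest 1% of bins. The 1 Mb correlation was 0.91 by Spearman, 0.92 on log2(count + 1), 0.89 merged, 0.86 without the most common score and 0.82 on chromosomes 1 to 19. For subnucleosome peaks the 100 kb correlation was 0.16 by Spearman, 0.41 on log2(count + 1), 0.86 with all bins and 0.55 without the densest 1%. At 1 Mb it was 0.25, 0.51, 0.85 and 0.64, and 0.83 with shifted bins. With the upper 50% of C57BL6 WT peaks by score, 33.0% of SV129 peaks were shared, where fewer peaks remain to overlap. Bins past the fold numbered 11084 at 1.5-fold. They numbered 1725 with at least 50 calls and 1704 merged, and in both of these settings more bins were higher than lower in SV129, the reverse of the main split. Genes with a call at an end in both lists numbered 7023 at 1000 bp and 1499 at 200 bp. In alternatives chosen after seeing the data, the quintile ratio was 3.30 in SV129 and 1.53 in C57BL6 WT without calls that overlap meiotic or round spermatid calls, and 3.02 and 1.45 away from gene ends. It was 3.18 in SV129 with X and 1.72 in C57BL6 WT merged. Pair density at 0 to 9 bp was 3.80 without the densest bins and 3.37 without positions of earlier stages. The cause of these moves was not tested. Unknown read depth limits every statement on calls absent from a list.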

Other observations

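SV129 elongating and round spermatids had 1 Mb densities with r 0.49 over 2569 bins, and those of C57BL6 WT r 0.08 over 2581 bins. The remaining fixed lists had the following call densities per Mb. Sperm metabolism and kinase genes had 419 in SV129 and 349 in C57BL6 WT, and late spermatogenesis regulators 274 and 270. Keratin genes had 471 and 425, replication-dependent histone genes 304 and 260, and beta-defensin genes 206 and 296. Sertoli and Leydig cell genes had 261 and 306, blood and immune genes 241 and 244, and epididymal and epithelial genes 207 and 205.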
